A study of Mus musculus with 9 samples.

Results

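Of the 51826 gene rows in the count table, 46 carried the symbol of a gene of DNA replication or mitosis, 25 of S phase and 21 of mitosis. They were found by symbol from a list drawn up with earlier results of these data known, and each symbol stood on 1 row. The RNA came from mouse BMMs, which are macrophages differentiated in the dish from marrow cells, in 3 groups of 3 libraries each. Control BMMs were untreated. The CM group spent 48 h in conditioned medium (CM) of K7M2, an osteosarcoma line from the mouse, and the CM plus DTM group spent 48 h in the same medium with DTM. The labels do not spell out DTM, its dose or the share of conditioned medium, and give no mouse strain, sex or age. For control they state neither how long the cells were cultured nor in which medium, so a difference from control may include both. Whether the libraries within a group are from different cultures or mice is not stated either. The p-values therefore reflect variation among libraries, part or all of which could be technical.

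A cell copies its DNA in S phase and divides in mitosis, and each step has its own wave of transcripts. In G1 the MCM helicase is loaded at origins, and E2F factors, released from the retinoblastoma protein, switch on the replication genes. Later the MuvB complex with B-MYB and FOXM1 switches on the mitotic genes, many through a promoter element called CHR beside CCAAT boxes bound by NF-Y, and the DREAM complex represses the same genes in resting cells. BMMs divide in culture while they receive the growth factor CSF1 and leave the cycle as they mature or are strongly activated. In bulk RNA, fewer dividing cells and less of these transcripts per dividing cell cannot be told apart.

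The promoters of 4 members are printed because they hold the elements just named. They belong to the most abundant members of each list with a motif match, and come from RefSeq on GRCm38.p6 as the 250 bases before the transcript start, 5′ to 3′ on the gene's own strand. Pcna lies at chr2:132253181-132253430 and Mcm6 at chr1:128359706-128359955. Cdk1 lies at chr10:69352913-69353162 and Top2a at chr11:99024190-99024439, and all 4 windows are on the minus strand. Capitals mark each match, on either strand, to an E2F motif (TTTCCCGC, TTTGGCGC, TTTGCCGC or TTTCGCGC), the CHR (TTTGAA or TTCGAA) or a CCAAT box (CCAAT).
Pcna: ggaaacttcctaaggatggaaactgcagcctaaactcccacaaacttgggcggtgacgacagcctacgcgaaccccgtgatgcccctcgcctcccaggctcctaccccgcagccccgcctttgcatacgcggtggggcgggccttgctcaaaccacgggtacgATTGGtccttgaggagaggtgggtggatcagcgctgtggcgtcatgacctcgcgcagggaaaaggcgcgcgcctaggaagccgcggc
Mcm6: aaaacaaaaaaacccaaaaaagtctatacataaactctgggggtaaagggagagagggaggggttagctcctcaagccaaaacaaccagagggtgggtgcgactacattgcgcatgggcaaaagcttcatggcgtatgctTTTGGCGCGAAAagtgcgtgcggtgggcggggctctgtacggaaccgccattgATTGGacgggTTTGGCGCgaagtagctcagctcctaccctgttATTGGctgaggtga
Cdk1: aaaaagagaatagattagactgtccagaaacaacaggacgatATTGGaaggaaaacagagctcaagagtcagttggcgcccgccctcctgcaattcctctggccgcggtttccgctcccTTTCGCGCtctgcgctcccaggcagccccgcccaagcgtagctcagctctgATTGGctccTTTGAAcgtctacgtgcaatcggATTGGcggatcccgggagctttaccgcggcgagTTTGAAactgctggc
Top2a: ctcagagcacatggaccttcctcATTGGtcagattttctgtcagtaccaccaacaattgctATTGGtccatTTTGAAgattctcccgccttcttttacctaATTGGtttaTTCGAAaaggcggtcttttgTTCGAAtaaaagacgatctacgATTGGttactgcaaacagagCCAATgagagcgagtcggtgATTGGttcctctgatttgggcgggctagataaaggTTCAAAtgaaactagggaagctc
The Mcm6 window held 3 E2F matches, of which 2 overlap on opposite strands, and 2 CCAAT boxes. The Top2a window held 6 CCAAT boxes and 4 CHR matches, with TTCGAA, which reads the same on both strands, counted once. The Cdk1 window held 3 CCAAT boxes, 2 CHR matches and 1 E2F match, and the Pcna window held 1 CCAAT box.

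A RefSeq promoter was found for 38 of the 46 members, as 26 windows for the S phase genes and 18 for the mitosis genes. An E2F match stood in 23.1% of the S phase windows, 5.56% of the mitosis windows and 1.86% of all windows. A CHR match stood in 15.4% of the S phase windows, 44.4% of the mitosis windows and 17.1% of all windows. A CCAAT box stood in 53.8%, 88.9% and 33.8%. Among windows of the genes tested, 3.12% held an E2F match, 12.5% a CHR match and 35.2% a CCAAT box. With the first 50 bases after the start included, an E2F match stood in 38.5% of the S phase windows and 2.26% of all windows, and a CHR match in 77.8% of the mitosis windows and 19.2% of all windows. The other shares of the members did not change. These shares describe letters only: a match is not a bound site, and other spellings of the motifs were not searched.

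Libraries held 43084296 to 50407973 counts, and levels are given as CPM, counts scaled to a common library size with TMM factors. All 46 members passed the filter on low counts, as did 15429 genes in all. CM 1 and CM plus DTM 1 stood apart from their groups, with correlations of log2 CPM of 0.939 to 0.94 and 0.919 to 0.936 to the others of their group. The remaining pair had 0.985 in CM and 0.979 in CM plus DTM. The summed level of the 10 macrophage markers was 36088 to 60537 CPM in every library, and 3 of 6 lymphocyte markers (Cd3e, Cd3g and Ncr1) were at 0 in all libraries.

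Before any test, the summed levels show the pattern. The 25 S phase genes together had 3765, 3606 and 3690 CPM in control 1 to 3. They had 969, 2226 and 2328 CPM in CM and 838, 3390 and 3117 CPM in CM plus DTM. All 3 CM libraries were below control, and CM plus DTM 2 and 3 lay between CM 2 and 3 and control, while CM plus DTM 1 was the lowest library. The 21 mitosis genes together had 874, 1779 and 1847 CPM in control, 363, 735 and 782 CPM in CM and 175, 1499 and 1467 CPM in CM plus DTM. Here control 1 was itself low, so that CM 3 came close to it, and CM plus DTM 2 and 3 were near control 2 and 3.

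**Figure D1:**
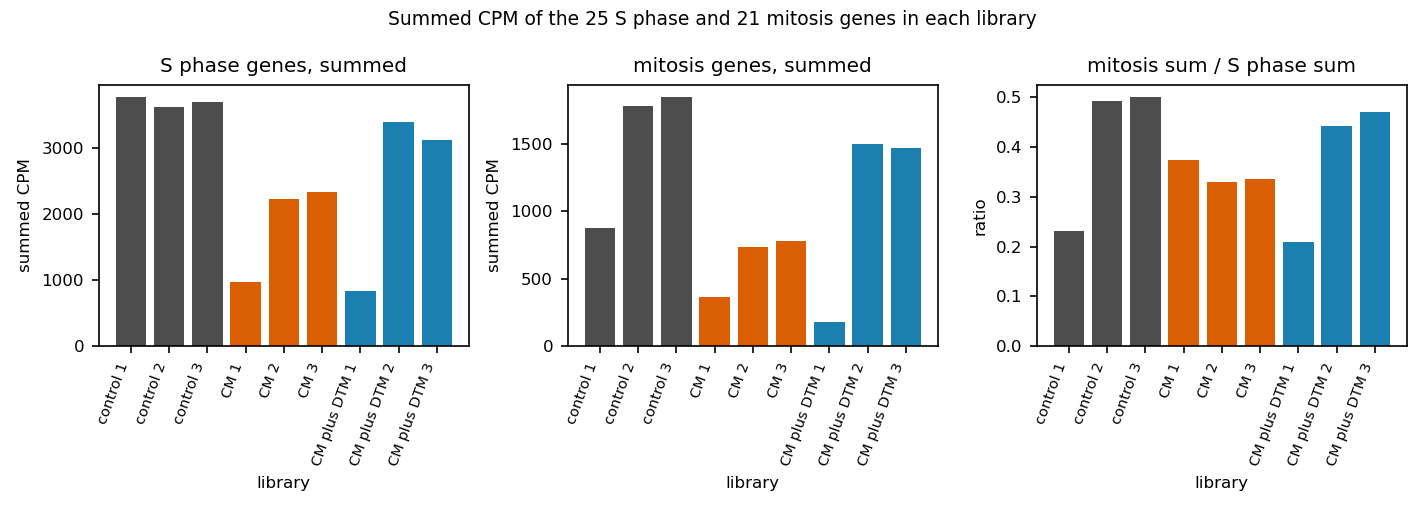
Bars give, for each of the 9 libraries, the summed TMM-scaled CPM of the 25 S phase genes, that of the 21 mitosis genes, and the ratio of the mitosis sum to the S phase sum. CM 1 (969 CPM) and CM plus DTM 1 (838 CPM) are far below the rest in the S phase genes, and control 1 (874 CPM) is below control 2 and 3 in the mitosis genes alone.

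The S phase and mitosis genes did not move as 1 block in every library. The ratio of the summed mitosis level to the summed S phase level was 0.232, 0.493 and 0.501 in control. In CM it was 0.375, 0.330 and 0.336, and in CM plus DTM it was 0.209, 0.442 and 0.471. Control 1 had a full S phase level with a mitosis level well under that of control 2 and 3, and CM plus DTM 1 had the lowest ratio. The median S phase gene stood at 24.2%, 63.8% and 66.9% of the control mean in CM 1 to 3, and at 21.2%, 93.8% and 81.5% in CM plus DTM 1 to 3. For the median mitosis gene CM gave 24.0%, 47.3% and 51.5%, and CM plus DTM gave 10.8%, 102% and 94.7%.

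Markers of other cells also differed among the libraries, in some lists not in the direction of the members. Their part in the results was not tested. The 12 neutrophil and granulocyte precursor markers summed to 204 to 736 CPM in control, 4.03, 265 and 290 CPM in CM and 1145, 515 and 359 CPM in CM plus DTM. In CM 1, 7 of them were at 0 counts (Camp, Ctsg, Elane, Ltf, Ly6g, Ngp and Retnlg). The 12 stromal and osteoblast markers summed to 1221 to 1558 CPM in control, 216 CPM in CM 1, and 1067 to 1282 CPM in the other treated libraries. The 5 progenitor markers summed to 5.49 to 6.80 CPM in control, 0.751, 3.60 and 3.27 CPM in CM and 2.25, 5.22 and 4.88 CPM in CM plus DTM. The progenitor sum, of a few CPM, was lowest in CM 1 and CM plus DTM 1, as was that of the replication genes. The median log2 ratio of the progenitor markers to control was -2.85 in CM 1 but -0.41 in CM plus DTM 1. It was -0.55 and -0.37 in CM 2 and 3, and -0.44 and -0.24 in CM plus DTM 2 and 3. Flt3 was at 0 or near it throughout. Mitochondrially encoded transcripts made up 1.77% of counts in both CM 1 and CM plus DTM 1 and 0.74% to 1.39% in the other libraries. The erythroid and megakaryocyte markers summed to 286 to 12817 CPM, highest in CM plus DTM 1 and nearly all from Pf4, while globin genes were at 0 or near it. With all 9 libraries 0 genes of these lists were called in any comparison, and of the 10 macrophage markers 2 rose in CM (Mertk and Fcgr1).

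**Figure D2:**
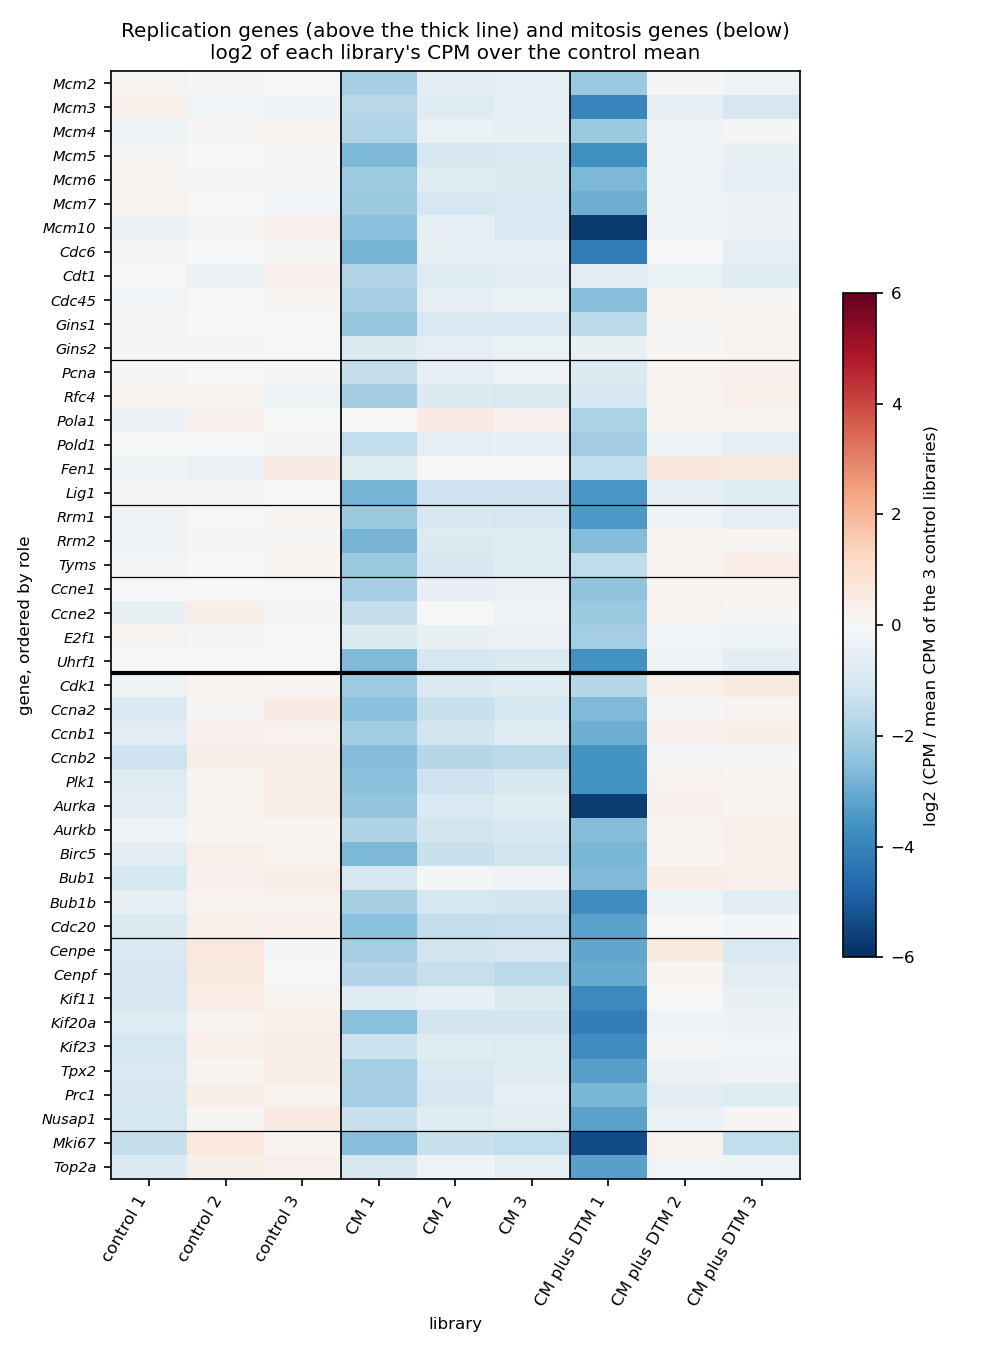
Log2 ratio of each of the 46 genes to its control mean in the 9 libraries, in rows by list and role, with reduced levels in blue and raised levels in red. The columns of CM 1 and CM plus DTM 1 are the most reduced, and the mitosis rows of control 1 are below those of control 2 and 3.

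Between CM and control, transcripts of both lists were lower in CM, with a median log2 fold change of -1.01 over the S phase genes and -1.25 over the mitosis genes, against -0.01 over all genes tested. No member passed the test with all 9 libraries: 0 of 25 S phase genes and 0 of 21 mitosis genes were called at an adjusted p under 0.05 (edgeR's quasi-likelihood test, Benjamini-Hochberg over all genes), where 5.61% of all genes were. At an unadjusted p under 0.05 there were 6 of 25 S phase and 4 of 21 mitosis genes. Of all 15429 genes 3307 met this rule, a share close to that of the members. DESeq2 called 1 of the 46, Cdt1, and 1937 of all 15429 genes, a larger share. In 22 of the 25 S phase genes and 13 of the 21 mitosis genes all CM libraries lay below all control libraries, which held for 18.4% of all genes.

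Origin licensing and the helicase come first in the cycle. All 12 genes of this role had CM libraries below control libraries, which held for 18.4% of all genes. Mcm5, a helicase subunit, had 329, 300.1 and 296 CPM in control, 48.2, 154 and 166 CPM in CM and 24.4, 266 and 225 CPM in CM plus DTM. Mcm6, another subunit, had 454, 399.6 and 394 CPM in control, 91.1, 250.5 and 236 CPM in CM and 65.0, 332 and 282 CPM in CM plus DTM. In both genes CM 2 and 3 were near each other and CM 1 far below. The fold change from control to CM was -1.33 (log2, SE 0.73, adjusted p = 0.332) for Mcm5. For Mcm6 the fold change was -1.11 (log2, SE 0.55, adjusted p = 0.286). Mcm3 had 277, 199 and 195 CPM in control, 69.4, 129.8 and 155 CPM in CM and 14.7, 159 and 112 CPM in CM plus DTM. Control 1 was the highest library for Mcm3, and its fold change was -0.92 (log2, SE 0.66, adjusted p = 0.468).

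Cdt1, which loads the helicase and is destroyed once S phase begins, came closest to a call. It had 89.6, 68.6 and 105 CPM in control, 25.2, 50.7 and 53.8 CPM in CM and 54.8, 66.8 and 53.0 CPM in CM plus DTM. CM plus DTM 1, low in most other members, was level with CM plus DTM 3 here. The fold change from control to CM was -1.02 (log2, SE 0.29, adjusted p = 0.0784). Gins2, part of the GINS complex that makes the helicase active, had 71.5, 64.9 and 68.3 CPM in control, 38.1, 46.7 and 52.0 CPM in CM and 50.4, 71.2 and 75.8 CPM in CM plus DTM. Its fold change of -0.58 (log2, SE 0.19, adjusted p = 0.122) was small with a small error, and CM plus DTM 1 was level with CM 2 and 3.

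The polymerase clamp and lagging strand genes differed among themselves. Pcna, the sliding clamp, had 592, 552 and 521 CPM in control, 205, 395 and 445 CPM in CM and 306, 615 and 666 CPM in CM plus DTM. Lig1, the ligase that joins Okazaki fragments, had 193, 179 and 185 CPM in control, 27.1, 78.1 and 79.3 CPM in CM and 16.5, 124 and 108 CPM in CM plus DTM. The CM libraries of Lig1 stood at 14.6%, 42.1% and 42.7% of the control mean. From control to CM, the log2 fold change of Lig1 was -1.59 (log2, SE 0.64, adjusted p = 0.193) and that of Pcna -0.67 (log2, SE 0.34, adjusted p = 0.296). Rfc4, a subunit of the clamp loader, had 24.97, 24.9 and 18.1 CPM in control, 5.39, 12.7 and 12.6 CPM in CM and 11.2, 25.4 and 27.6 CPM in CM plus DTM. For Rfc4 the change was -1.15 (log2, SE 0.41, adjusted p = 0.143). Fen1, the flap nuclease of the lagging strand, had 61.0, 59.3 and 109 CPM in control, 46.4, 76.9 and 74.5 CPM in CM and 27.7, 125 and 115 CPM in CM plus DTM. Its CM and control libraries overlapped, as did those of Pola1 and Ccne2, and its fold change of -0.21 (log2, SE 0.50, adjusted p = 0.852) was within its error. Pola1, the catalytic subunit of the primase polymerase, named after its values were seen, was the only S phase gene with a higher fitted level in CM, at 0.25 (log2, SE 0.46, adjusted p = 0.808).

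Deoxynucleotide supply genes were lower than control in all 3 CM libraries, which held for 18.4% of all genes. Rrm1, the large subunit of ribonucleotide reductase, had 322, 386 and 415 CPM in control, 78.9, 191 and 186 CPM in CM and 34.7, 315 and 258 CPM in CM plus DTM. Rrm2, its small subunit, had 186, 226 and 226 CPM in control, 30.8, 122 and 123 CPM in CM and 35.4, 235 and 235 CPM in CM plus DTM. Tyms, which makes thymidylate, had 36.3, 39.7 and 42.6 CPM in control, 8.48, 20.5 and 23.5 CPM in CM and 13.6, 45.2 and 54.5 CPM in CM plus DTM. In each of these genes CM 1 stood at 14.5% to 21.4% of the control mean and CM 2 and 3 at 49.7% to 59.3%. The fold changes were -1.30 (log2, SE 0.65, adjusted p = 0.294) for Rrm1 and -1.18 (log2, SE 0.50, adjusted p = 0.215) for Tyms. For Rrm2 it was -1.21 (log2, SE 0.67, adjusted p = 0.34).

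**Figure D3:**
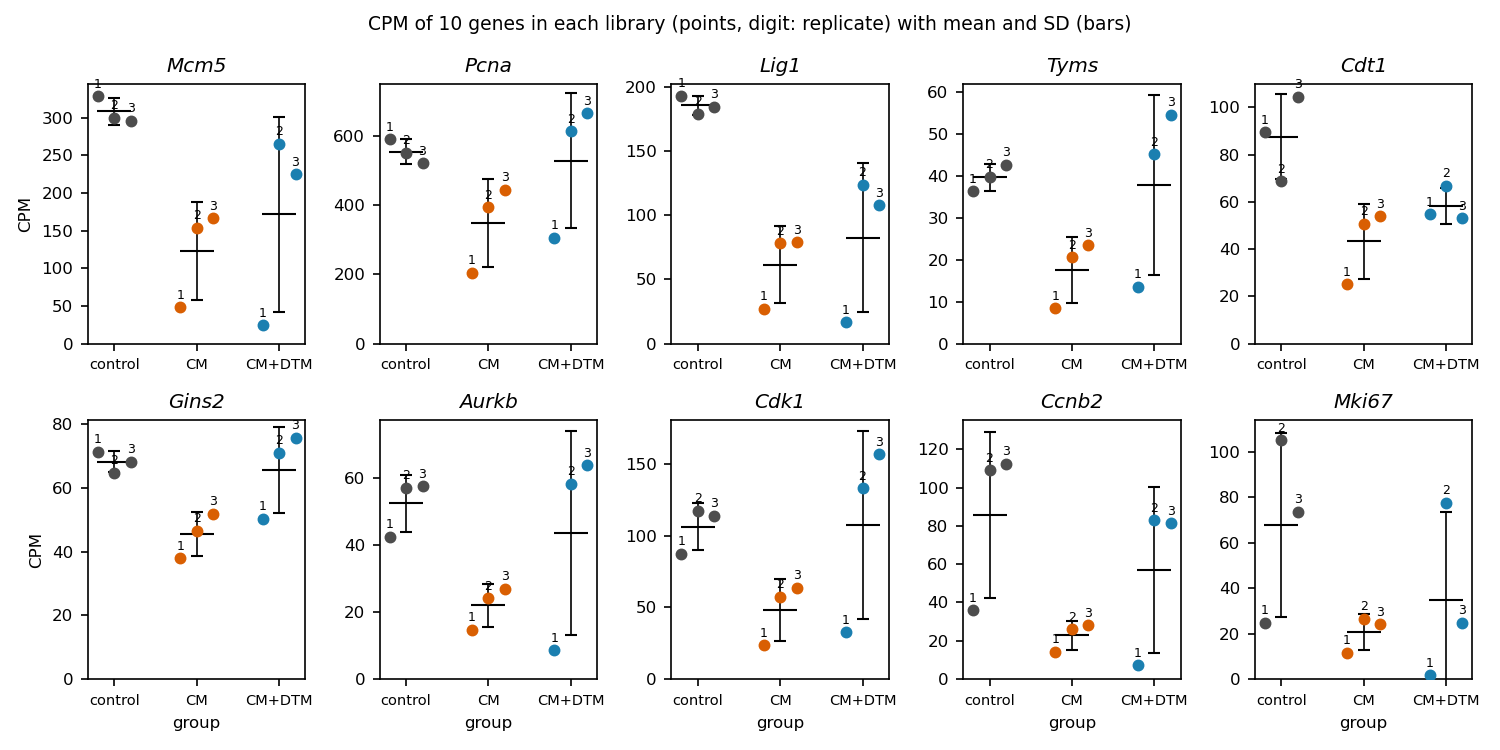
TMM-scaled CPM of 10 members in the 9 libraries, with 1 numbered point per library, bars at the group mean and error bars of 1 SD (n = 3). In most panels CM 1 and CM plus DTM 1 set the SD of their groups; the error bar of Mki67 in CM plus DTM would run below 0 and is cut at the axis.

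Among the genes of S phase entry, Ccne1, the cyclin E that drives CDK2, had 54.9, 54.5 and 57.3 CPM in control, 13.4, 38.9 and 41.7 CPM in CM and 10.4, 59.3 and 59.4 CPM in CM plus DTM. E2f1, the activator of the replication genes, had 112, 91.8 and 98.6 CPM in control, 57.2, 73.9 and 78.1 CPM in CM and 24.9, 90.7 and 82.0 CPM in CM plus DTM. Uhrf1, which brings the maintenance methyltransferase to newly copied DNA, had 201, 210.3 and 205 CPM in control, 32.4, 100.4 and 109 CPM in CM and 16.6, 168 and 134 CPM in CM plus DTM. Uhrf1 was reduced more than the other genes of this role, by -1.35 (log2, SE 0.71, adjusted p = 0.314) against -0.53 (log2, SE 0.40, adjusted p = 0.488) for E2f1, a difference between genes that was not tested. The fold change of Ccne1 was -0.83 (log2, SE 0.60, adjusted p = 0.471).

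Of the mitotic kinase, cyclin and checkpoint genes, 10 of 11 had CM libraries below control libraries, against 18.4% of all genes. The exception was Bub1. Cdk1, the kinase that drives entry into mitosis, had 87.4, 117 and 114 CPM in control, 23.8, 57.5 and 63.8 CPM in CM and 33.0, 133 and 157 CPM in CM plus DTM. Ccnb2, one of its cyclin B partners, had 35.9, 109 and 112 CPM in control, 14.3, 26.0 and 28.2 CPM in CM and 7.14, 82.8 and 81.2 CPM in CM plus DTM. Ccnb2 was at 16.7% to 32.8% of the control mean in CM, and at 41.8% in control 1. Its log2 fold change from control was -1.91 (log2, SE 0.78, adjusted p = 0.197), and that of Cdk1 was -1.14 (log2, SE 0.53, adjusted p = 0.261). Ccna2, the cyclin A of S phase and early mitosis, had 82.7, 164 and 222 CPM in control, 28.2, 62.7 and 75.7 CPM in CM and 24.7, 150.4 and 172 CPM in CM plus DTM. Plk1, the polo kinase, had 65.0, 122 and 150.2 CPM in control, 20.2, 47.4 and 57.7 CPM in CM and 9.33, 132 and 122 CPM in CM plus DTM. Bub1b, a spindle checkpoint kinase homologue, had 69.2, 116 and 115 CPM in control, 25.01, 48.8 and 46.2 CPM in CM and 7.44, 80.6 and 64.3 CPM in CM plus DTM. The fold changes were -1.49 (log2, SE 0.67, adjusted p = 0.237) for Ccna2 and -1.43 (log2, SE 0.79, adjusted p = 0.337) for Plk1. That of Bub1b was -1.32 (log2, SE 0.68, adjusted p = 0.304).

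Spindle, kinetochore and cytokinesis genes overlapped more, with 3 of 8 having CM below control in all libraries, against 18.4% of all genes. The difference between roles was not tested. Cenpf, a kinetochore protein of G2 and mitosis, had 3.02, 8.95 and 6.09 CPM in control, 1.76, 2.31 and 1.95 CPM in CM and 0.730, 6.55 and 3.76 CPM in CM plus DTM. Prc1, which bundles the central spindle, had 34.1, 87.0 and 76.1 CPM in control, 16.1, 32.5 and 43.3 CPM in CM and 9.90, 41.3 and 39.2 CPM in CM plus DTM. Tpx2, which activates Aurora A on the spindle, had 59.1, 125 and 148 CPM in control, 26.9, 59.4 and 66.2 CPM in CM and 11.7, 88.1 and 95.4 CPM in CM plus DTM. In Prc1 and Tpx2 control 1 lay among the CM libraries. The kinesin Kif20a, needed for cytokinesis, had 61.5, 124 and 133 CPM in control, 18.7, 50.4 and 49.7 CPM in CM and 6.06, 90.4 and 82.9 CPM in CM plus DTM. From control to CM the change was -1.58 (log2, SE 0.67, adjusted p = 0.215) for Cenpf and -1.10 (log2, SE 0.57, adjusted p = 0.309) for Prc1. It was -1.13 (log2, SE 0.68, adjusted p = 0.381) for Tpx2 and -1.43 (log2, SE 0.80, adjusted p = 0.342) for Kif20a.

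The proliferation marker and the topoisomerase overlapped between groups. Mki67, which encodes the Ki-67 antigen, had 24.8, 105 and 73.7 CPM in control, 11.6, 26.5 and 24.2 CPM in CM and 1.62, 77.7 and 24.8 CPM in CM plus DTM. Control 1 was no higher than CM 2, and CM plus DTM 3 was level with CM 3. Top2a, which untangles sister chromatids, had 60.6, 135 and 127 CPM in control, 55.7, 89.1 and 70.7 CPM in CM and 11.1, 94.8 and 87.8 CPM in CM plus DTM. The fold changes were -1.71 (log2, SE 1.02, adjusted p = 0.374) for Mki67 and -0.58 (log2, SE 0.64, adjusted p = 0.652) for Top2a.

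Without CM 1 and CM plus DTM 1, more members passed. These libraries stood apart over all genes. Between them they were also the lowest for 25 of the 25 S phase and 21 of the 21 mitosis genes. Over all genes, CM 1 was the lowest library in 20.9% and CM plus DTM 1 in 27%. Leaving both out therefore takes away the lowest values of the members. Then 15 of 25 S phase genes and 6 of 21 mitosis genes fell in CM, against 6.41% of all genes called lower. The median log2 fold change was smaller, at -0.62 for S phase and -0.9999 for mitosis. The fold change of Lig1 was then -1.20 (log2, SE 0.12, adjusted p = 0.000529) and that of Rrm1 -0.95 (log2, SE 0.15, adjusted p = 0.00556). Uhrf1 was at -0.94 (log2, SE 0.14, adjusted p = 0.00335) and Mcm5 at -0.91 (log2, SE 0.13, adjusted p = 0.00269). The other called S phase genes were Mcm2, Mcm6, Mcm7, Cdt1, Gins1, Gins2, Rfc4, Pold1, Rrm2, Tyms and Ccne1. Of the mitosis genes, Ccnb2 was at -1.63 (log2, SE 0.44, adjusted p = 0.0425) and Cdk1 at -0.78 (log2, SE 0.16, adjusted p = 0.0169). The other called mitosis genes were Aurkb, Birc5, Bub1b and Cdc20. Groups did not overlap in 22 and 13 genes, as before, where 26.2% of all genes now met that rule.

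In the fit without both libraries, a few genes from the lists of other cells passed the test as well, and their part in the results was not tested. Of the 12 genes of the neutrophil list 1 was called in CM, Camp at -2.59 (log2, SE 0.70, adjusted p = 0.0415). The median of that list was -0.42, and some of its genes pointed up, most of all Ctsg at 1.27 (log2, SE 0.49, adjusted p = 0.121). Of the 10 stromal genes tested 2 were called, Sparc at -0.45 (log2, SE 0.12, adjusted p = 0.0432) and Postn at -1.02 (log2, SE 0.29, adjusted p = 0.0487). The median of that list was -0.31, and some of its genes pointed up, most of all Dcn at 1.07 (log2, SE 0.65, adjusted p = 0.309). Of the 3 erythroid and megakaryocyte genes tested 1 was called, Pf4, which was higher, at 2.82 (log2, SE 0.31, adjusted p = 0.001). The others were Klf1 at 0.53 (log2, SE 0.49, adjusted p = 0.506) and Itga2b at -1.38 (log2, SE 1.22, adjusted p = 0.485). Of the 10 macrophage markers 4 rose in CM (Itgam, Mertk, Fcgr1 and Ctsd) and 1 fell, Csf1r, the receptor of CSF1, at -0.59 (log2, SE 0.16, adjusted p = 0.0462). From CM to CM plus DTM Itgam and Mertk fell. The mitochondrial transcript mt-Nd3 rose from CM to CM plus DTM, at 0.79 (log2, SE 0.15, adjusted p = 0.0347).

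The call depended on which library was left out. Without CM plus DTM 1 alone, which is not in this comparison but shares its estimate of the spread, 5 S phase genes (Mcm7, Gins1, Gins2, Lig1 and Rrm1) and 6 mitosis genes (Ccnb2, Aurkb, Birc5, Bub1b, Cdc20 and Cenpf) passed, against 4.29% of all genes called lower. Without CM 1 alone 0 of 46 passed, where 1.41% of all genes were called lower, and the S phase median was -0.65.

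**Figure D4:**
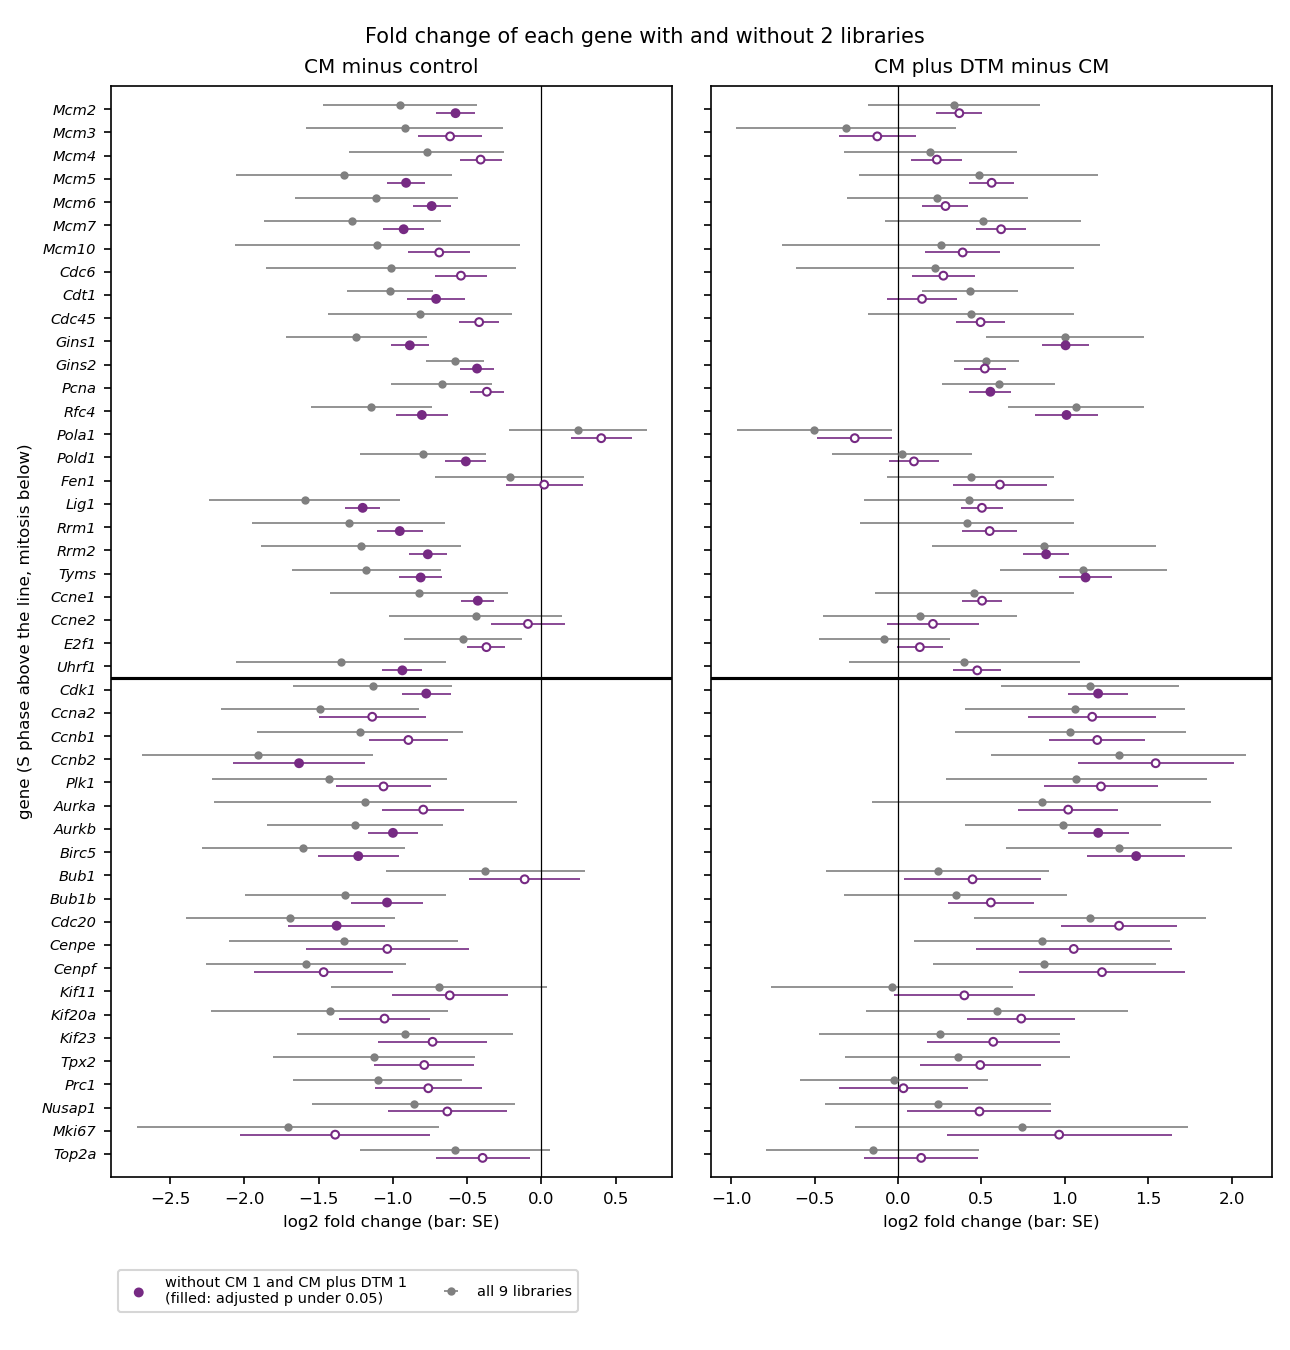
Log2 fold change of each of the 46 genes with its SE (bars) from control to CM and from CM to CM plus DTM, with all 9 libraries (grey) and without CM 1 and CM plus DTM 1 (purple, filled where the adjusted p is under 0.05). The filled points are the 15 S phase and 6 mitosis genes lower in CM and the 5 and 3 genes higher in CM plus DTM, and the bars are shorter without both libraries.

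What DTM adds to the conditioned medium is read from CM plus DTM against CM, which uses the CM libraries already compared with control. In CM plus DTM 2 and 3 both lists stood above their level in every CM library, and in CM plus DTM 1 they stood lowest of all libraries. With all 9 libraries the median log2 difference of CM plus DTM from CM was 0.43 for the S phase genes and 0.86 for the mitosis genes, against -0.03 over all genes. These medians moved with single libraries: they were 0.02 and 0.18 without CM plus DTM 2, 0.20 and 0.62 without CM plus DTM 3, 0.07 and 0.50 without CM 1, and 0.81 and 1.31 without CM plus DTM 1. With limma-voom they were 0.16 and 0.06. No member was called and 0% of all genes were, by edgeR, whereas DESeq2 called 2827 genes and 0 members. At an unadjusted p under 0.05, 2 of 25 S phase and 0 of 21 mitosis genes were found, and 4372 of all 15429 genes, a larger share. All CM plus DTM libraries lay above all CM libraries in 0 of 46 genes, where 16.7% of all genes did so. CM plus DTM 1 lay below both CM 2 and CM 3 in 23 of 25 S phase genes and 21 of 21 mitosis genes, and below CM 1 in 18 and 20. These counts were not made over all genes, but CM plus DTM 1 was the lowest library in 27% of them.

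Among the members with the smallest p of their role, Gins2 differed by 0.53 (log2, SE 0.19, adjusted p = 0.118) and Rfc4 by 1.07 (log2, SE 0.41, adjusted p = 0.128). Tyms differed by 1.11 (log2, SE 0.50, adjusted p = 0.182) and Cdk1 by 1.15 (log2, SE 0.53, adjusted p = 0.192). In CM plus DTM 1 these stood at 73.9%, 49.5%, 34.3% and 31.0% of the control mean. At the other end, in members named after their values were seen, Mcm10, which helps start the helicase, stood at 1.88% and Aurka, the Aurora A kinase, at 1.93%. The differences of Cenpf and Mki67 were 0.88 (log2, SE 0.67, adjusted p = 0.415) and 0.74 (log2, SE 0.997, adjusted p = 0.661), and that of Ccne1 was 0.46 (log2, SE 0.60, adjusted p = 0.648).

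Without CM 1 and CM plus DTM 1, 5 S phase genes (Gins1, Pcna, Rfc4, Rrm2 and Tyms) and 3 mitosis genes (Cdk1, Aurkb and Birc5) rose from CM to CM plus DTM, against 1.8% of all genes called higher. Tyms rose by 1.125 (log2, SE 0.16, adjusted p = 0.0208) and Rrm2 by 0.89 (log2, SE 0.14, adjusted p = 0.0252). Rfc4 rose by 1.01 (log2, SE 0.19, adjusted p = 0.034) and Pcna by 0.55 (log2, SE 0.13, adjusted p = 0.0488). Cdk1 rose by 1.20 (log2, SE 0.18, adjusted p = 0.0222). The medians were 0.50 and 1.02. In 21 of 25 S phase and 18 of 21 mitosis genes both CM plus DTM libraries were above both CM libraries, where 31.5% of all genes met that rule. Without CM plus DTM 1 alone 0 members passed, and 0.00634% of all genes were called higher.

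**Figure D5:**
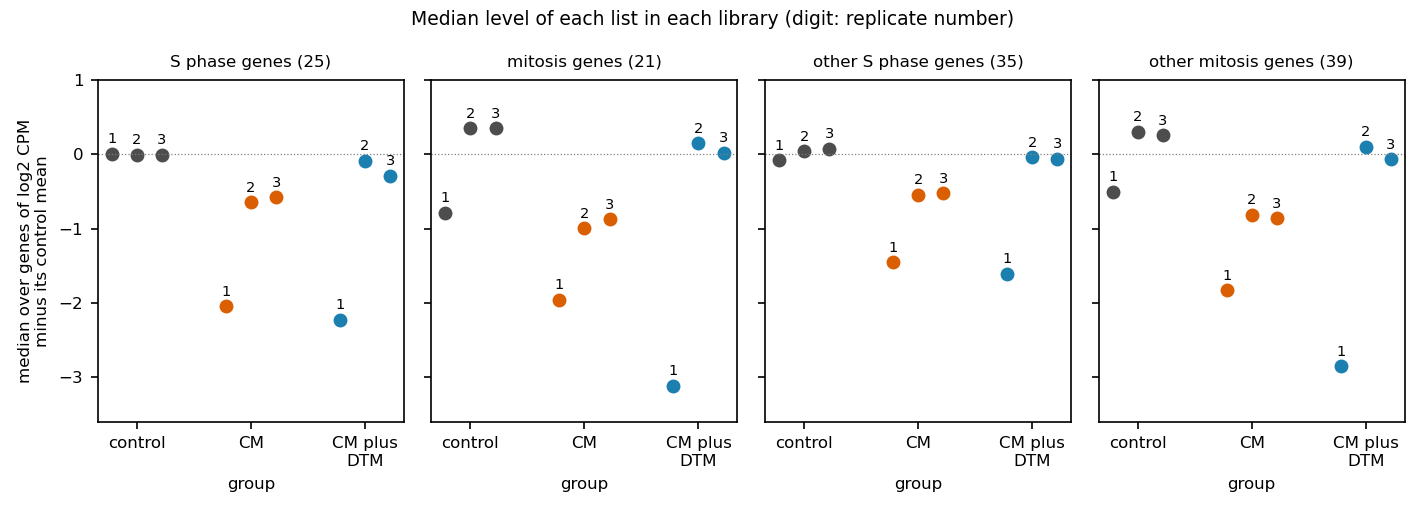
Median log2 ratio to the control mean of the members of each list in each library, with the S phase and mitosis genes beside the further lists of S phase and mitosis genes. The further lists follow the members: CM plus DTM 2 and 3 lie near 0 and CM 1 and CM plus DTM 1 far below.

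The comparison of CM plus DTM with control shares its control libraries with the first comparison and its CM plus DTM libraries with the second. It had 0 of 46 members called, where 2.45% of all genes were. At an unadjusted p under 0.05 there were 0 members, and 3762 of all 15429 genes. The median was -0.59 in both lists, against 0.01 over all genes. With limma-voom the medians were -0.80 and -1.01. Without CM plus DTM 1 they were -0.21 for S phase and -0.09 for mitosis, and the mitosis median was -0.38 without control 2 or control 3 and -0.95 without control 1 or CM plus DTM 2. DESeq2 called 0 members too, and 1980 of all 15429 genes. All CM plus DTM libraries lay below all control libraries in 10 of 25 S phase genes and 0 of 21 mitosis genes, where 17.8% of all genes did. The 10 genes were Mcm3, Mcm5, Mcm6, Mcm7, Cdt1, Pold1, Lig1, Rrm1, E2f1 and Uhrf1. The members with the smallest p in their roles included Cdt1 at -0.59 (log2, SE 0.29, adjusted p = 0.244) and Lig1 at -1.17 (log2, SE 0.64, adjusted p = 0.291). Prc1 was at -1.124 (log2, SE 0.57, adjusted p = 0.26). Without CM 1 and CM plus DTM 1 the medians were -0.21 and -0.09, and 1 member fell, Lig1 at -0.70 (log2, SE 0.12, adjusted p = 0.0137), where 4.32% of all genes were called lower.

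The S phase genes did not all sit at the same place relative to control in CM plus DTM 2 and 3. Lig1 stood at 66.7% and 58.0% of the control mean, Mcm3 at 71.0% and 50.2% and Uhrf1 at 82.0% and 65.2%. In 14 genes both libraries were below the control mean and in 11 both were above it. Rrm2 stood at 110.4% and 110.5% and Tyms at 114% and 138%. Fen1 stood at 163% and 151%, above control 1 and 2 as well as control 3. In the mitosis genes Cdk1 stood at 125% and 147% and Prc1 at 62.8% and 59.7%, and in 7 of 21 both libraries were above the control mean and in 7 both were below it.

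Further genes of both phases had medians below 0 in CM as well. Of 35 other S phase genes 0 were called in any comparison with all 9 libraries, and their median log2 change was -0.76 from control to CM and 0.43 from CM to CM plus DTM. Of 40 other mitosis genes, 39 were found under the symbol used. Sgo1 was not, as the table has it under an older symbol. Of the 39, 0 were called, and the medians were -1.14 and 0.57. Rpa1, the large subunit of the protein that coats single-stranded DNA, had 219, 229 and 213 CPM in control, 49.7, 129 and 131 CPM in CM and 50.8, 192 and 169 CPM in CM plus DTM. Tk1, the thymidine kinase of the salvage pathway, had 117, 131 and 123 CPM in control, 17.3, 38.8 and 38.2 CPM in CM and 9.74, 96.2 and 100.2 CPM in CM plus DTM. All CM libraries of both genes were below all control libraries, which held for 18.4% of all genes. Incenp, the scaffold of the Aurora B complex, had 175, 249 and 268 CPM in control, 79.8, 108 and 116 CPM in CM and 28.2, 167 and 129.6 CPM in CM plus DTM. Racgap1, which acts with the central spindle in cytokinesis, had 114, 182 and 207 CPM in control, 38.9, 73.3 and 75.6 CPM in CM and 4.52, 160.4 and 147 CPM in CM plus DTM. In Tk1, Incenp and Racgap1, CM plus DTM 2 and 3 lay between CM 2 and 3 and control 2 and 3. Without CM 1 and CM plus DTM 1, 16 of 35 and 16 of 39 fell in CM, against 6.41% of all genes, and 11 of 35 and 3 of 39 rose from CM to CM plus DTM, against 1.8%. Not all pointed down in CM: in that fit 4 of 35 and 1 of 39 had a fold change above 0, among them Rfc1 at 0.60 (log2, SE 0.19, adjusted p = 0.0679) and Pttg1 at 0.60 (log2, SE 0.36, adjusted p = 0.303), named after their values were seen.

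Of 27 regulators of the cycle outside both lists, 0 were called with all 9 libraries, with medians of -0.23 from control to CM and 0.16 from CM to CM plus DTM. Ccnd1, the cyclin D1 that links growth factor signals to the retinoblastoma protein, had 989.6, 1033 and 1004 CPM in control, 108, 638 and 589 CPM in CM and 544, 791 and 736 CPM in CM plus DTM. Cdk4, its partner kinase, had 126, 139.8 and 125 CPM in control, 130.3, 102 and 117 CPM in CM and 253, 166 and 172 CPM in CM plus DTM. Ccnd1 was below control in all 6 treated libraries, and CM 1 was the lowest. Cdk6, which acts beside CDK4, had 72.5, 93.1 and 95.6 CPM in control, 128, 124 and 114 CPM in CM and 102, 114 and 134 CPM in CM plus DTM. Cdkn1a, the p53 target p21 that blocks cyclin kinases, had 344, 459 and 451 CPM in control, 367, 439.9 and 448 CPM in CM and 725, 606 and 556 CPM in CM plus DTM. In Cdk4 and Cdkn1a all 3 CM plus DTM libraries were above the other 6, with adjusted p of 0.0619 and 0.0805 for the difference from CM (edgeR). In 16.7% of all genes the CM plus DTM libraries were all above those of CM. That rule is looser than lying above the other 6 libraries, which was not counted over all genes. Without CM 1 and CM plus DTM 1, 8 of 27 fell and 1 rose in CM, where 6.41% of all genes were called lower and 9.62% higher. The largest falls were those of 2 inhibitors of cyclin kinases, Cdkn1c at -2.25 (log2, SE 0.32, adjusted p = 0.00305) and Cdkn2c at -1.36 (log2, SE 0.27, adjusted p = 0.0124). The fall of Cdkn1c depended on leaving CM 1 out. Without CM plus DTM 1 alone, Cdkn1c was at 0.96 (log2, SE 1.09, adjusted p = 0.61) and Cdkn2c at -1.40 (log2, SE 0.23, adjusted p = 0.00822). With both libraries left out the repressors E2f7 and E2f8 fell, at -1.25 (log2, SE 0.22, adjusted p = 0.00793) and -0.94 (log2, SE 0.20, adjusted p = 0.016), as did the activator E2f2. Foxm1 was at -0.97 (log2, SE 0.21, adjusted p = 0.0196) and Mybl2, which encodes B-MYB, at -0.96 (log2, SE 0.16, adjusted p = 0.00609), and the last of the 8 was Ccnd1. The riser was Ccnd2, another D cyclin, at 1.08 (log2, SE 0.16, adjusted p = 0.0034). From CM to CM plus DTM 2 rose, Cdk4 and Cdkn2d, and 1 fell, Ccnd2, where 1.8% of all genes were called higher and 3.17% lower. Apart from Ccnd1 and Cdk4, the genes of this fit were named after their values were seen.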

How the data were processed

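RNA from mouse BMMs was extracted with TRIzol, and mRNA libraries were read on the DNBSEQ-T7 platform, per the labels' protocols. The values used were the raw counts that the authors deposited, with genes in rows by symbol (183 of 51826 rows share a symbol, none a member) and 1 column for each of 9 libraries. The submitters' processing notes list HISAT2 2.1.0, Trimmomatic 0.36, DESeq2 1.12.4 and FastQC 0.11.2, and 2 builds, GRCh38 and mm39, without saying what each was used for. The counting program, annotation and strand setting are not given in the sources used here. Overlapping genes and near-identical copies are therefore uncertain.

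Genes were kept by edgeR's filterByExpr (15429 genes) and TMM factors set the library sizes. Tests used edgeR 4.0.16 in R 4.3.3 (glmQLFit and glmQLFTest) with 1 fit of all 9 libraries by group, with Benjamini-Hochberg adjustment over all genes tested and a threshold of 0.05. SEs were obtained from each log2 fold change and its F statistic (|log2 fold change| / √F). Alternatives were DESeq2 1.42.0, limma-voom (limma 3.58.1), edgeR with legacy = FALSE, other scalings, count filters and sample choices. The edgeR fits were tested on simulated data, and the outcome is not given here. No pair of libraries agreed within sampling noise (chi-square per degree of freedom of at least 19.8).

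Members and lists were chosen with earlier results of these data known, so lists are described by counts and medians, with no test. Named genes were, in each of 7 roles, the 3 most abundant members and the member with the smallest p in each of the 3 comparisons, and at most 4 of the most abundant genes of other lists. Promoters were matched by symbol in a RefSeq table of GRCm38.p6, which is not a build named in the notes. No sequence was taken from the libraries.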

Additional observations from a re-analysis of the deposited data

How the results depend on the processing

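The direction of both medians was kept in CM against control under all alternatives run. For CM against control, the genes called over the whole table numbered 865 with edgeR, 1937 with DESeq2, 1360 with only the 2 groups compared and 2503 without CM 1 and CM plus DTM 1. S phase members called were 0 with edgeR, 1 with DESeq2, 1 with total count scaling (Cdt1 in both) and 15 without both libraries. Mitosis members called were 0, then 3 with only the 2 groups compared (Aurkb, Bub1b and Cdc20) and 6 without both libraries. Leaving out each library in turn gave 256 to 1884 genes, 0 to 5 S phase members and 0 to 6 mitosis members, all at their highest without CM plus DTM 1. For CM plus DTM against CM, the genes called were 0 with edgeR, 2827 with DESeq2, 6 with legacy = FALSE, 1 with total count scaling, 1 with only the 2 groups compared and 776 without both libraries, where 5 S phase and 3 mitosis members passed. Leaving out each library in turn gave 0 to 1876 genes, the most without CM plus DTM 2, and 0 members. For CM plus DTM against control, the genes called were 378 with edgeR, 1980 with DESeq2, 118 with only the 2 groups compared and 1311 without both libraries, where 1 S phase member passed. Leaving out each library in turn gave 15 to 1766 genes and 0 members. Total count scaling moved the median of all genes to -0.21 for CM against control and to -0.24 for CM plus DTM against control, and turned the split of calls in CM against control from 623 higher and 242 lower to 415 and 464. The log2 fold change of Fen1 from control to CM turned to 0.02 without both libraries, and leaving out each library in turn gave -0.40 (without control 2) to 0.13 (without control 3). That of Mki67 from CM to CM plus DTM turned to -0.27 with limma-voom and to -0.12 with library number as a block, and leaving out each library gave -0.64 (without CM plus DTM 2) to 1.26 (without CM plus DTM 1). The cause of these shifts was not tested. Same-numbered libraries did not deviate together in every pair (correlations of -0.04 to 0.04 between control and CM, 0.05 to 0.30 between control and CM plus DTM, and 0.10 to 0.14 between CM and CM plus DTM). A library correlated best with its own number in 2 of 6, 3 of 6 and 6 of 6 cases, as a hint from the data. With library number as a block, 1 mitosis member (Prc1) was called in CM against control, and 149 genes in CM plus DTM against control. The block moved the S phase and mitosis medians of CM plus DTM against CM to 0.27 and 0.34, and those of CM plus DTM against control to -0.80 and -0.89.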
